A study of Mus musculus with 24 samples.

Results

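This section describes how microglia without CD14 differed from wild-type microglia after 3 h with fibronectin. RNA sequencing counts of 3 libraries of CD14-deficient cells given mouse fibronectin (KO FN) were set against 3 libraries of wild-type cells given the same stimulus (WT FN). The 3 untreated libraries of each genotype (KO untreated, WT untreated) served as the baseline of each response, so that 12 of the 24 libraries of the series enter, chosen by their labels. The primary microglia came from p0 mice of the strain B6.129S4-Cd14tm1Frm/J (KO), in which a Cd14 allele from a 129S4 background, disrupted in every cell, is carried on the C57BL/6 background, or from C57BL/6 mice (WT). Fibronectin was given at 100 µg/ml. The other 12 libraries, KO and WT cells after 3 h with Re-LPS at 0.1 or 10 ng/ml, were used for the shared estimate of the spread and for a comparison of stimuli. The series text describes 3 independent cell preparations per condition. P-values of the main fit measure the spread between libraries of a group and treat all libraries as independent. Same-numbered libraries of a genotype correlated, as given at the end, and the main fit leaves this pairing out. Where a block on the replicate number is named, p-values measure the spread left after differences between numbers are removed.

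CD14 is a membrane-anchored protein that hands lipopolysaccharide (LPS) to the receptor complex of TLR4 and MD-2 and that takes part in the uptake of this complex into endosomes. At the cell surface TLR4 signals through MyD88 to NF-kB and to genes such as Tnf. From endosomes it signals through TRIF and IRF3 to Ifnb1, and the secreted interferon then acts through its receptor and STAT proteins on interferon-stimulated genes. Fibronectin is a plasma and matrix glycoprotein that reaches brain tissue when the blood-brain barrier is damaged, and it is bound by integrins and has been described as a TLR4 agonist. Microglia, the macrophages of the brain, express CD14, TLR4 and integrins.

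Total counts ran from 14939019 to 22143774 over the 12 libraries, and 13294 of the 18919 genes in the count table had enough counts to be tested. Levels are CPM, which put the counts of a library relative to its total after a TMM (trimmed mean of M-values) composition factor. Differences are on the log2 scale, and the value after ± is a standard error. The 43 listed interferon-stimulated genes took 0.238%, 0.266% and 0.153% of the counts in KO FN libraries and 5.34%, 5.10% and 6.60% in WT FN libraries. TMM factors were 1.07 to 1.22 in KO FN and 0.648 to 0.773 in WT FN, and scaling by library totals moved the median log2 fold change of all genes, KO FN against WT FN, to 0.68 from 0.02. Values below use TMM. The libraries numbered 1 stood apart from those numbered 2 and 3 on the second principal component, which held 21.1% of the variance, in all 4 groups. Summed CPM of the 7 microglial markers was 6286 to 7171 in KO FN and 5334 to 5543 in WT FN, and 3 of them were higher in KO FN. Summed CPM of the 12 oligodendrocyte lineage markers was 179.6 to 257.9 in KO FN and 255.6 to 478.2 in WT FN, and 1 marker was called in each direction. Of the 9 tested astrocyte markers 1 was lower in KO FN, with list sums of 18.2 to 40.2 CPM in KO FN and 19.1 to 48.8 CPM in WT FN. No neuronal marker of 7 was called, and their list sums were 1.92 to 42.1 CPM in KO FN and 5.99 to 21.3 CPM in WT FN. Of 4 tested vascular and fibroblast markers 2 were lower in KO FN, the list sums were 58.3 to 61.5 CPM in KO FN and 62.1 to 142.7 CPM in WT FN, and Cldn5 and Lum had no count in any of the 12 libraries. The summed level of other leukocyte markers was at most 0.583 CPM. The part of other cell types in the results was not tested, and in bulk RNA fewer cells of a type and less RNA per cell cannot be told apart.

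Cd14 itself (chromosome 18, 36725067 to 36726798, GRCm38, minus strand) had 4.40, 5.25 and 3.42 CPM in the 3 KO FN libraries and 5090, 4060 and 2180 CPM in the WT FN libraries. In KO untreated cells it had 4.58, 4.14 and 3.05 CPM, against 1150, 639 and 338 CPM in WT untreated cells. All KO libraries lay far below all WT libraries, as their labels state. Cd14 differed by -9.75 ± 0.68 on the log2 scale with FN (edgeR adjusted p = 8.68e-09). With FN it changed by 0.15 ± 0.50 in KO cells (edgeR adjusted p = 0.974) and rose by 2.41 ± 0.49 in WT cells. The difference of these responses, -2.26 ± 0.69, had an edgeR adjusted p of 0.0219, which was lost on leaving out KO FN replicate 3, WT FN replicate 1, WT untreated replicate 3 or the libraries numbered 1 (0.0534, 0.0603, 0.0538 and 0.0764).

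With fibronectin the 2 genotypes differed at 5130 of the 13294 genes tested (38.6%), at an adjusted p under 0.05 from edgeR's quasi-likelihood test with Benjamini-Hochberg adjustment, the rule for every gene called here. Of these, 2795 were higher (21.0% of genes tested) and 2335 lower (17.6%) in KO FN, and at least 2-fold differences were found at 1289 and 1328 of them. The 3 KO FN libraries did not overlap the 3 WT FN libraries at 6054 genes (45.5%). Of the calls 54.5% were higher in KO FN, and 86.0% under scaling by library totals, with 6838 higher and 1117 lower. Without the libraries numbered 1, 3827 genes were called, 1986 higher and 1841 lower in KO FN. Between the untreated groups the genotypes differed at 1 gene, Cd14 (0.00752%), and 130 genes had an unadjusted p below 0.05. That is fewer than the share of 0.05 that tests without any difference give on average. The single call therefore does not show that untreated cells were alike. In untreated cells a block on the replicate number gave 19 calls. DESeq2 called 2 genes and a fit of the untreated groups alone called none.

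The response of each genotype to FN was also set against its own untreated cells. In KO cells 1227 genes rose (9.23%) and 953 fell (7.17%), and in WT cells 3153 rose (23.7%) and 3517 fell (26.5%). A block on the replicate number gave 3431 calls in KO cells, against 2180 without it. Without the libraries numbered 1, 1004 genes were called in KO cells and 5472 in WT cells. Under library totals 43.2% of KO calls and 16.8% of WT calls were rises, against 56.3% and 47.3% with TMM. Of the genes that rose in WT cells 1039 also rose in KO cells, 84.7% of the KO list and 33.0% of the WT list. Of those that fell in WT cells 809 also fell in KO cells, 84.9% of the KO list and 23% of the WT list. The difference of responses (FN response of KO less the FN response of WT, log2) was called at 3069 genes (23.1%), 1564 of them higher (11.8%) and 1505 lower (11.3%). It was called at 1580 genes without the libraries numbered 1 and at 6553 with a block for each replicate of each genotype. Of its calls 51.0% were higher in KO, and 86.1% under library totals.

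For genes that changed at least 2-fold in WT cells, the log2 change in KO cells was divided by that in WT cells. The genes were chosen by the same WT change that divides the share, and this choice alone can lower the share. Among the 1847 genes that had risen, the KO change was a median of 30.7% of the WT change, with quartiles of 9.17% and 55.8%. It was under 10% for 476 of these genes and over 75% for 213. Among the 2066 genes that had fallen the median was 32.7%, with quartiles of 19.8% and 48.5%. Taken by library number, with a prior count of 2, the median for risen genes was 32.3%, 31.5% and 25.6% (SD 3.67 percentage points, n = 3). These values pair KO and WT libraries by number, and the labels do not say that equal numbers share a preparation.

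**Figure D1:**
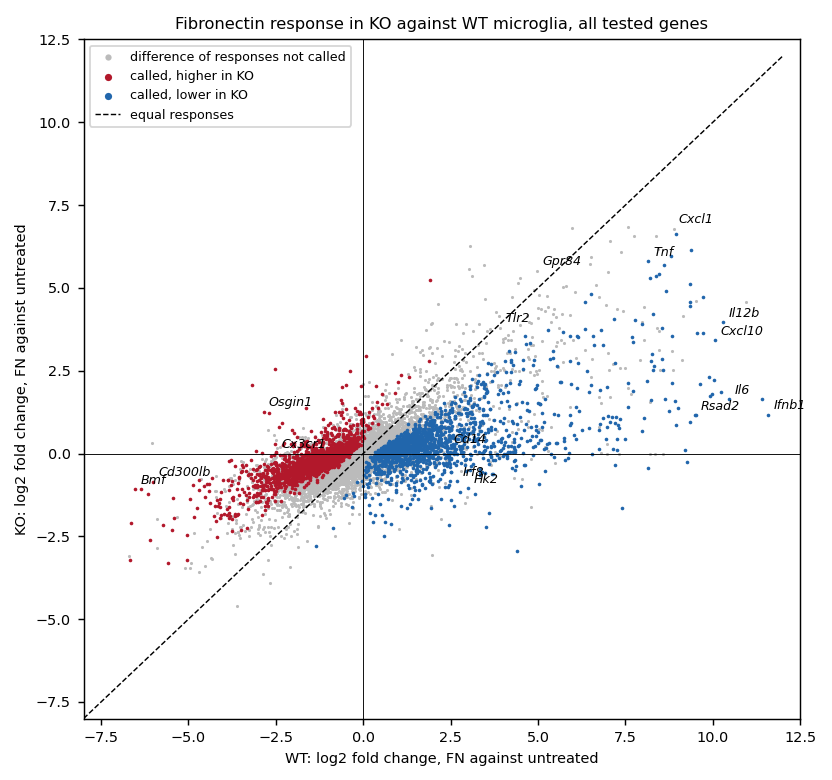
Log2 fold change with FN in KO cells (vertical) against that in WT cells (horizontal) for all 13294 tested genes; colours mark the 3069 genes with a called difference of responses and the dashed line marks equal responses. Genes such as Il6, Rsad2 and Ifnb1 lie far right near the KO zero line, Tnf and Cxcl1 lie between that line and the dashed one, and Gpr84 and Tlr2 lie near the dashed line.

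Cytokine genes were lower in KO FN almost throughout. Over all genes tested 38.6% were called, 21.0% higher and 17.6% lower, and list counts here and below are to be set beside these shares. Of 22 tested cytokines 21 were lower and none higher, with a median log2 fold change of -3.91, against 0.02 over all genes. Of these cytokines 13 rose with FN in KO cells and 21 in WT cells. Without the libraries numbered 1, 19 were lower in KO FN and 8 in place of 13 rose in KO cells. Tnf, the early macrophage cytokine, had 1540, 941 and 1370 CPM in KO FN and 9130, 7200 and 6090 CPM in WT FN, and 25.8, 14.3 and 29.4 CPM in KO untreated and 38.9, 26 and 13.7 CPM in WT untreated cells. Every KO FN library was below every WT FN library, and every KO FN library was also far above the untreated ones. Tnf thus rose by 5.80 ± 0.52 in KO cells and by 8.15 ± 0.58 in WT cells, and KO FN differed from WT FN by -2.54 ± 0.45 (edgeR adjusted p = 0.000164). Il6, a cytokine of the acute phase, had 2.98, 1.02 and 2.88 CPM in KO FN, 669, 485 and 694 CPM in WT FN, 0.675, 0.587 and 0.943 CPM in KO untreated and 0.364, 0.237 and 0.691 CPM in WT untreated cells. Its KO FN values lay near those of untreated cells, and the increase in KO cells did not pass the test (1.64 ± 0.65, edgeR adjusted p = 0.0992). In WT cells Il6 rose by 10.46 ± 0.81, and the genotypes differed by -8.08 ± 0.71 with FN (edgeR adjusted p = 8.11e-08).

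Il12b, the shared subunit of IL-12 and IL-23, stood between these patterns. It had 63.2, 32.3 and 20.9 CPM in KO FN and 3230, 2710 and 1670 CPM in WT FN, against 2.46, 2.82 and 2.16 CPM in KO untreated and 3.33, 1.42 and 1.33 CPM in WT untreated cells. The KO FN libraries were above all untreated ones and below all WT FN ones. It rose in both genotypes, by 3.96 ± 0.63 in KO and 10.29 ± 0.82 in WT cells, with a difference of -6.03 ± 0.68 between KO FN and WT FN (edgeR adjusted p = 1.25e-06). Il27, which encodes a subunit of IL-27, and Tnfsf15, a ligand of the TNF superfamily, differed by -6.98 ± 0.46 and -7.28 ± 1.35. Tgfb1, an anti-inflammatory cytokine, was the only uncalled member, at 297, 217 and 316 CPM in KO FN and 357, 328 and 245 CPM in WT FN (-0.16 ± 0.23, edgeR adjusted p = 0.645), and its sign turned under library totals.

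**Figure D2:**
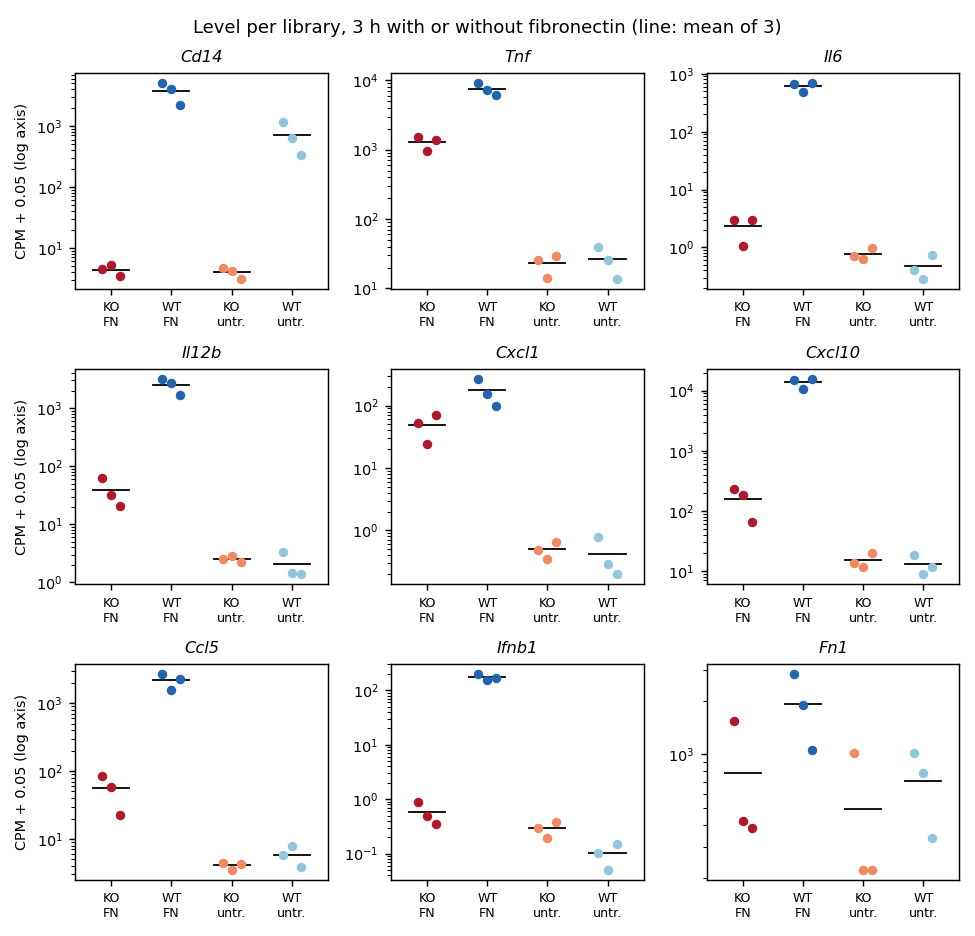
CPM (log axis, with 0.05 added) of 9 genes in each library, in the order KO FN, WT FN, KO untreated, WT untreated; points are libraries and lines are means of 3. KO FN libraries lie below WT FN libraries for all genes except Fn1, where the groups overlap; for Tnf and Cxcl1 they also lie far above both untreated groups, and for Ifnb1 and Il6 they lie close to them.

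Chemokine genes ranged from those that KO cells hardly induced to those that they clearly induced. Of 23 tested, 17 were lower in KO FN, none was higher and 6 were not called, with a median of -2.61. FN raised 14 of them in KO and 20 in WT cells. Cxcl10, a T-cell attractant under interferon control, had 232, 182 and 65.4 CPM in KO FN and 15000, 10500 and 15900 CPM in WT FN, and 13.5, 11.4 and 19.8 CPM in KO untreated and 18.4, 8.71 and 11.7 CPM in WT untreated cells. No KO FN library reached the WT FN range, and all exceeded the untreated ones. The genotypes differed by -6.43 ± 0.65 (edgeR adjusted p = 3.53e-07), with a rise of 3.42 ± 0.57 in KO and 10.06 ± 0.76 in WT cells. Ccl5, another T-cell and monocyte attractant, had 85.4, 58.7 and 22.2 CPM in KO FN, 2680, 1570 and 2240 CPM in WT FN, 4.34, 3.45 and 4.27 CPM in KO untreated and 5.72, 7.81 and 3.75 CPM in WT untreated cells. The order of the groups was that of Cxcl10, with a genotype difference of -5.29 ± 0.64 with FN (edgeR adjusted p = 2.61e-06). Larger differences were seen for Cxcl11 and Cxcl9, ligands of the receptor that Cxcl10 also uses, at -8.46 ± 0.72 and -8.18 ± 0.80, and for the monocyte attractant Ccl7 at -7.84 ± 0.56.

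The neutrophil chemokines were induced in both genotypes. Cxcl1 had 52.1, 23.8 and 70.1 CPM in KO FN and 271, 156 and 97.9 CPM in WT FN, and 0.434, 0.293 and 0.610 CPM in KO untreated and 0.727, 0.237 and 0.148 CPM in WT untreated cells. The highest KO FN library was below the lowest WT FN library, and both groups were far above untreated cells. It rose by 6.79 ± 0.79 in KO and 8.88 ± 0.85 in WT cells, and the genotypes differed by -1.85 ± 0.59 with FN (edgeR adjusted p = 0.0181). That call was lost without KO FN replicate 2, without WT FN replicate 1, without the libraries numbered 1 and under library totals (edgeR adjusted p = 0.0855, 0.0958, 0.0976 and 0.0616). Cxcl2 had 795, 216 and 433 CPM in KO FN and 2170, 1380 and 570.0 CPM in WT FN, groups that overlapped, and Cxcl3 had 58.4, 13.7 and 20.2 CPM and 374, 125 and 42.6 CPM. Neither passed the test (-1.51 ± 0.80 and -2.55 ± 1.02, edgeR adjusted p = 0.152 and 0.0562), whereas both did when blocked on the replicate number (0.0169 and 0.000928). Over the 23 chemokines, summed CPM was 6607, 4439 and 5283 in KO FN and 49090, 34180 and 45450 in WT FN.

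Interferon-stimulated genes had the lowest median of the 19 lists, and Ifnb1 was among the largest falls. Ifnb1, the interferon induced downstream of IRF3, had 0.837, 0.448 and 0.300 CPM in KO FN and 199, 153 and 166 CPM in WT FN, 0.241, 0.147 and 0.333 CPM in KO untreated and 0.0520, 0 and 0.0987 CPM in WT untreated cells. The WT FN libraries stood alone and the other groups were all under 1 CPM. KO FN differed from WT FN by -8.33 ± 0.80 (edgeR adjusted p = 2.32e-07), and the change with FN in KO cells was 1.17 ± 0.81 (edgeR adjusted p = 0.413). WT untreated libraries held 3 counts in all, so that the ratio of pooled scaled counts with FN over untreated in WT cells was 3490, with a 95% counting interval of 1190 to 16900.

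All 43 interferon-stimulated genes were lower in KO FN, also without the libraries numbered 1, with a median of -5.32, and the difference of responses was called lower at 42 of them. In KO cells 8 of them rose with FN, with a median over the list of 0.55, and in WT cells all 43 rose, by a median of 6.04. In KO cells 13 rose with a block for each replicate of each genotype, and 5 without the libraries numbered 1. Their summed level was 2227, 2170 and 1375 CPM in KO FN and 82370, 66060 and 89350 CPM in WT FN, and 944.0 to 1430 CPM in KO untreated and 902.3 to 1302 CPM in WT untreated cells. KO FN sums lay close to those of untreated cells and WT FN sums far above. Rsad2 (viperin, an antiviral enzyme, chromosome 12, 26442746 to 26456452, GRCm38) had 78.6, 55.5 and 41.7 CPM in KO FN and 18200, 16700 and 18200 CPM in WT FN, 21.6, 28 and 29.8 CPM in KO untreated and 25.2, 25.6 and 22.1 CPM in WT untreated cells. Its libraries with FN differed by -8.24 ± 0.61 between genotypes (edgeR adjusted p = 1.37e-08), and the change in KO cells was 1.15 ± 0.45 (edgeR adjusted p = 0.0967). Cmpk2, a mitochondrial nucleotide kinase, and Oasl1, of the oligoadenylate synthetase family, differed by -8.03 ± 0.56 and -8.03 ± 0.73. Iigp1 and Gbp4, interferon-inducible GTPases, differed by -7.78 ± 0.71 and -8.09 ± 0.86, Gbp4 being outside the list and among the 10 largest falls.

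Promoters of Rsad2 and Cxcl10, known interferon targets that were lower in KO FN, and of Il6 and Cxcl1, one hardly and one clearly induced in KO FN, are shown to place 2 motifs, the interferon-stimulated response element bound by IRF and STAT complexes and the site bound by NF-kB. The 220 bases before the start of each gene are given 5′ to 3′ on the gene's strand, from RefSeq on GRCm38.p6. Capitals mark GAAANNGAAA in Rsad2 (as its reverse complement) and Cxcl10, and GGGANTTTCC in Il6 and Cxcl1. Only these letters were searched, with N for any base, and other spellings of either site were left unmarked. A promoter without capitals for a motif, such as Cxcl10 for the NF-kB letters, may thus still hold such a site. The shares below are likewise shares of these letters only.
Rsad2, chr12:26456453-26456672, minus strand: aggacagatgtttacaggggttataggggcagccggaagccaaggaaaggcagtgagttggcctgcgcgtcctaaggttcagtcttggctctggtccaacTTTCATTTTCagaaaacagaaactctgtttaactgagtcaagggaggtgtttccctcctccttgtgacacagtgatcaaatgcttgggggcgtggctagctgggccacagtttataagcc
Cxcl10, chr5:92348890-92349109, minus strand: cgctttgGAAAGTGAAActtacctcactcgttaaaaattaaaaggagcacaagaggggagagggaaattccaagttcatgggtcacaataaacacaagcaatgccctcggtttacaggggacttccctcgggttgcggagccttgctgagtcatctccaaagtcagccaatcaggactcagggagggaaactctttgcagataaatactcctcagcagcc
Il6, chr5:30012894-30013113, plus strand: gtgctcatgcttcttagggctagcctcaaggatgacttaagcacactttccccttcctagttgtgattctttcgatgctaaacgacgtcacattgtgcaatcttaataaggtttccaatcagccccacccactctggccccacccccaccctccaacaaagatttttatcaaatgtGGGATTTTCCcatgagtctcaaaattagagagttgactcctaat
Cxcl1, chr5:90891025-90891244, plus strand: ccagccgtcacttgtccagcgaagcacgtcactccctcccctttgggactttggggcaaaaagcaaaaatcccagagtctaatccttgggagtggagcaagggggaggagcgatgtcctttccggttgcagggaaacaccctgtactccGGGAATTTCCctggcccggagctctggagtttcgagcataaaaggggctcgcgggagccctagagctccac
The response element began 120 bases before the start in Rsad2 and 213 bases before it in Cxcl10, and the NF-kB letters began 44 bases before it in Il6 and 71 bases before it in Cxcl1. Both motifs were searched on both strands of the 250 bases before the start, and in these genes no match of one overlapped a match of the other. Of 32851 promoters of the table, 2.98% held GAAANNGAAA and 0.356% held GGGANTTTCC. GAAANNGAAA was found in 44.7% of 38 promoters of the interferon-stimulated genes (31 of 43 matched by symbol). Among genes at least 4-fold lower in KO FN it was in 11.6% of 553 promoters (435 of 629 matched), and among those at least 4-fold higher in 1.52% of 198 (157 of 237 matched). Genes that rose at least 4-fold in WT cells, were not called in KO cells and had a called, lower response there held it in 10.5% of 332 promoters (256 of 361 matched), and genes that rose in both genotypes with no called difference of responses held it in 1.90% of 158 (128 of 189 matched). GGGANTTTCC was in 2 of 332 (0.602%) and 3 of 158 (1.90%) promoters of these last sets. Among genes at least 4-fold lower in KO FN 5 of 553 promoters held it (0.904%), and among those at least 4-fold higher 0 of 198. Over all tested genes the shares were 0.447% for GGGANTTTCC and 2.74% for GAAANNGAAA. The counts of GGGANTTTCC are too small to rank the sets. A match is a description of letters and not a measured binding site.

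Interferon receptor and signalling genes had smaller genotype differences than the target genes. Of 11 tested, 8 were lower and 1 higher in KO FN, with a median of -0.74. Irf8, a transcription factor of the microglial lineage, had 181, 179 and 207 CPM in KO FN and 2040, 1670 and 2300 CPM in WT FN, 342, 326 and 339 CPM in KO untreated and 326, 320.0 and 287 CPM in WT untreated cells. KO FN libraries were the lowest and WT FN the highest of the 4 groups, and Irf8 fell by 0.83 with FN in KO cells and rose by 2.69 ± 0.15 in WT cells (edgeR adjusted p = 0.000504 and 2.15e-10). Jak2, a kinase associated with cytokine receptors, differed by -2.35 ± 0.23, Stat3 by -1.81 ± 0.15 and Irf5 by -1.21 ± 0.12. Ifngr1, the binding chain of the interferon gamma receptor, was the higher member, with 352, 308 and 325 CPM in KO FN and 218, 191 and 193 CPM in WT FN (0.71 ± 0.14, edgeR adjusted p = 0.000505). Irf3 had 52.2, 61.6 and 63 CPM in KO FN and 51.6, 42.6 and 50.6 CPM in WT FN and was not called (0.29 ± 0.14, edgeR adjusted p = 0.119, 0.0383 when blocked on the replicate number).

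Genes of MHC class I presentation were lower in KO FN nearly throughout, with smaller differences than the interferon-stimulated genes. Of 16 tested 15 were lower in KO FN, with a median of -1.76, and 2 rose in KO cells and all 16 in WT cells. With a block for each replicate of each genotype 5 rose in KO cells, and without the libraries numbered 1 there was 1. The uncalled member, the proteasome activator subunit Psme2 (-1.67 ± 0.90), was called when blocked on the replicate number (9.12e-07). Tap1, a peptide transporter, had 44.9, 50.1 and 42.5 CPM in KO FN, 896, 641 and 977 CPM in WT FN, 45.6, 59.5 and 41 CPM in KO untreated and 43.7, 54.4 and 47.9 CPM in WT untreated cells. KO FN, KO untreated and WT untreated values lay together, and WT FN values above them by more than 10 times (-4.19 ± 0.28, edgeR adjusted p = 7.71e-09). Nlrc5, the transactivator of class I genes, differed by -3.79 ± 0.42. Of 11 tested class II and costimulatory genes 6 were lower, among them Cd274, an inhibitory ligand, at -4.80 ± 0.33, and Cd40 at -4.79 ± 0.54. Calls made up 54.5% of this list, against 38.6% of all genes tested. Cd40 had 51.9, 24.4 and 39.9 CPM in KO FN and 1280, 828 and 1110 CPM in WT FN, and it rose in KO cells too (4.22 ± 0.54, edgeR adjusted p = 2.19e-05). Icosl, the ligand of ICOS, was at 334, 366 and 257 CPM in KO FN and 324, 218 and 312 CPM in WT FN, groups that overlapped, and it rose by 4.26 ± 0.33 in KO and 3.79 ± 0.33 in WT cells.

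NF-kB subunits and their feedback inhibitors kept their direction of response in KO cells. Of 29 tested, 27 rose with FN in KO cells and 29 in WT cells, with median changes of 2.76 and 3.91. Between KO FN and WT FN 27 were lower and none higher, with a median of -1.43. Dusp2, a phosphatase that acts on MAP kinases, had 45.4, 31.1 and 30.1 CPM in KO FN and 428, 324 and 445 CPM in WT FN, against 1.01, 0.477 and 1.05 CPM in KO untreated and 1.56, 0.852 and 0.987 CPM in WT untreated cells. KO FN libraries were far above untreated ones and below all WT FN ones (-3.49 ± 0.44, edgeR adjusted p = 4.15e-06). Traf1, an adaptor of TNF receptors, showed the same order, with -3.41 ± 0.51. Socs1 and Cish, inhibitors of cytokine receptor signalling, differed by -7.44 ± 0.73 and -6.07 ± 0.66, and Socs1 did not pass the test of a response in KO cells (1.39 ± 0.67, edgeR adjusted p = 0.186). The uncalled members were Tnip3 and Irak3. Irak3, an inhibitory kinase of TLR signalling, had 58.7, 43.3 and 50.4 CPM in KO FN and 70.5, 51.6 and 40.0 CPM in WT FN, against 11.7, 13.8 and 14.1 CPM in KO untreated and 16.1, 14.2 and 17 CPM in WT untreated cells. It rose by 1.94 ± 0.23 in KO and 1.78 ± 0.23 in WT cells (edgeR adjusted p = 1.07e-05 and 3.61e-06). Its genotype difference with FN, -0.09 ± 0.23, turned to 0.58 under library totals.

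**Figure D3:**
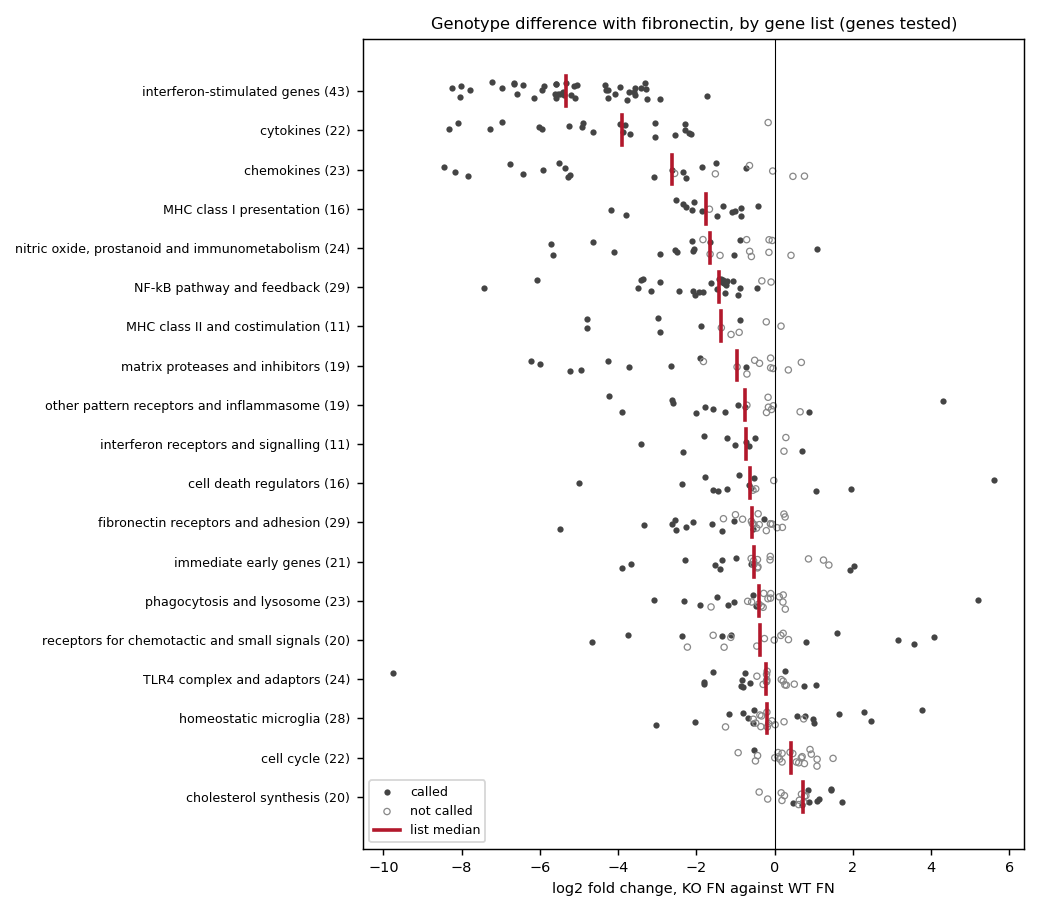
Log2 fold change of KO FN against WT FN for the tested members of 19 gene lists, sorted by list median; filled points were called, open points were not, and red lines are medians. Interferon-stimulated genes, cytokines and chemokines lie furthest left; under library totals the medians of immediate early genes, TLR4 complex, fibronectin receptors, homeostatic, phagocytosis, chemotactic receptor and cell death genes turned positive.

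Some genes that rose with FN in both genotypes had small differences of responses. The 10 listed next were picked for that, so their likeness comes from the choice. A difference that was not called does not show equal responses. Of 400 genes that rose in both, with at least a 4-fold rise in WT cells and 5 CPM in some group, the 10 with the smallest differences of responses were Rbpms, Slc11a2, Vasp, Lcn2, Ncrna00085, Tlr2, Syk, Ppap2b, Pdgfb and Cebpb. Tlr2, the receptor for bacterial lipopeptides, had 2320, 1940 and 1900 CPM in KO FN and 3900, 3380 and 2780 CPM in WT FN, 195, 114 and 131 CPM in KO untreated and 355, 182 and 137 CPM in WT untreated cells. KO FN libraries were below WT FN libraries, and both were more than 5 times their untreated values. Tlr2 rose by 3.80 ± 0.32 in KO and 3.90 ± 0.32 in WT cells, a difference of -0.10 ± 0.40, while KO FN differed from WT FN by -0.71 ± 0.28 (edgeR adjusted p = 0.0578, 0.00675 with that block). Vasp, a regulator of actin filaments, had 637, 632 and 716 CPM in KO FN and 924, 683 and 744 CPM in WT FN, and rose by 2.83 ± 0.21 and 2.85 ± 0.21 in KO and WT cells. Its difference of responses, -0.02 ± 0.28, turned to 0.63 under library totals. Those of Tlr2, Syk and Cebpb turned to 0.541, 0.545 and 0.479 under the same scaling. Syk, a kinase downstream of Fc receptors and C-type lectins, rose by 1.92 ± 0.23 and 2.03 ± 0.23. Pdgfb, a growth factor chain, rose by 2.27 ± 0.41 and 2.13 ± 0.41 in KO and WT cells, and the transcription factor Cebpb by 1.99 ± 0.45 and 2.13 ± 0.45. Gpr84, a receptor for medium-chain fatty acids, had 1580, 984 and 1240 CPM in KO FN and 1600, 1150 and 1090 CPM in WT FN, groups that overlapped, against 45.4, 15.6 and 22.4 CPM in KO untreated and 72.1, 34.6 and 15.5 CPM in WT untreated cells. Its genotype difference with FN of -0.01 ± 0.46 was not called, which does not show equal levels.

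The TLR4 complex and its adaptors had 9 lower and 3 higher members of 24 tested (50% called, against 38.6% of all genes tested). Their median of -0.21 turned to 0.43 under library totals. Myd88, the adaptor of most Toll-like receptors, had 135, 116 and 122 CPM in KO FN and 460.0, 347 and 505 CPM in WT FN, and it rose in both genotypes, by 1.26 ± 0.18 and 3.07 ± 0.20 (edgeR adjusted p for KO FN against WT FN = 4.61e-07). Cd180, a TLR4-like receptor, differed by -1.80 ± 0.23. Tab1 and Irak4, parts of the signalling chain behind the receptor, were higher in KO FN by 1.05 ± 0.14 and 0.74 ± 0.15. The third higher member, the kinase Irak1 (0.27 ± 0.10), lost its call under RLE scaling, with DESeq2, without a filter, in a fit of the compared groups alone, without the libraries numbered 1 and on leaving out any of 4 libraries (adjusted p of 0.0585 to 0.132). Among other pattern receptors 10 of 19 were lower and 2 higher, Tlr5 and Tlr13 (63.2% called, against 38.6% of all genes tested). Tlr5, the flagellin receptor, rests on 8 counts in KO FN and none in WT FN, at least 1.90-fold higher with a floor of 3 counts over the group, and its call was lost in a fit of the compared groups alone (0.0931), without the libraries numbered 1 (0.0671) and with DESeq2, which gave no adjusted p. Nod1 and Tlr3, sensors of peptidoglycan fragments and of RNA, differed by -4.24 ± 0.50 and -3.91 ± 0.36, and Nod2 by -2.62 ± 0.35. Tlr3 had 17.7, 19.1 and 15.7 CPM in KO FN and 207, 205 and 377 CPM in WT FN, with 16.7, 19.8 and 24.1 CPM in KO untreated and 17.6, 19.8 and 22.6 CPM in WT untreated cells, so that only WT FN libraries stood apart. The call of Tlr13 (0.88 ± 0.30, edgeR adjusted p = 0.0275) was lost on leaving out KO FN replicate 1 or 3 or WT FN replicate 1 or 3 (0.0606 to 0.126), without the libraries numbered 1 (0.264) and in a fit of the compared groups alone (0.076).

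Receptors and partners of fibronectin were examined because the stimulus is their ligand. Of 29 tested, 12 were lower in KO FN and none higher. The share called was 41.4%, against 38.6% of all genes tested, of which 17.6% were lower. The list median was -0.57, and 0.08 under library totals. Sdc4, a syndecan that binds fibronectin beside integrins, had 454, 296 and 505 CPM in KO FN and 5610, 3940 and 3150 CPM in WT FN, 34.6, 28.7 and 67.2 CPM in KO untreated and 43.5, 36.2 and 29.2 CPM in WT untreated cells. KO FN libraries were above all untreated ones and below all WT FN ones, and Sdc4 rose by 3.27 ± 0.45 and 6.87 ± 0.53 (genotype difference with FN -3.34 ± 0.45, edgeR adjusted p = 9.47e-06). Vcam1, an adhesion molecule, differed by -5.50 ± 0.52, and Src, a kinase of focal adhesions, by -2.54 ± 0.34. Fn1, the gene of fibronectin itself, had 1530, 423 and 385 CPM in KO FN and 2830, 1890 and 1050 CPM in WT FN, and 1020, 223 and 223 CPM in KO untreated and 1010, 780.0 and 337 CPM in WT untreated cells. Its groups overlapped, with the library numbered 1 highest in each group. The genotype difference of -1.31 ± 0.80 was not called (edgeR adjusted p = 0.222), but it was when blocked on the replicate number (0.00107) and without the libraries numbered 1 (0.0171). Tln1, talin, which couples integrins to actin, had 1090, 849 and 970.0 CPM in KO FN and 1330, 1440 and 1040 CPM in WT FN and was not called (-0.39 ± 0.22).

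Matrix proteases and their inhibitors had 9 lower members of 19 and none higher, with a median of -0.96. The share called was 47.4%, against 38.6% of all genes tested, of which 17.6% were lower. Mmp13, a collagenase, had 129, 78.9 and 64.2 CPM in KO FN and 5320, 4530 and 7480 CPM in WT FN, 16, 13.9 and 16.9 CPM in KO untreated and 14.7, 15.4 and 15.4 CPM in WT untreated cells. It rose in both genotypes, by 2.54 ± 0.42 in KO and 8.57 ± 0.55 in WT cells, and differed by -6.00 ± 0.49 with FN (edgeR adjusted p = 3.42e-08). Adam8, a membrane protease, was at 1190, 1450 and 1460 CPM in KO FN and 1180, 1680 and 1540 CPM in WT FN and was not called (-0.10 ± 0.16), a sign that turned under library totals. Lipg, endothelial lipase, had the largest fitted fall. It had no count in the KO FN libraries and 4.25, 2.19 and 13.9 CPM in WT FN libraries, at least 139-fold lower in KO FN with a floor of 3 counts over the group. Serping1, the C1 inhibitor, had 1 count in KO FN and 599 in WT FN, a ratio of pooled scaled counts of 0.00119 (95% counting interval 0.00003 to 0.00664).

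Among genes of nitric oxide, prostanoids and immune metabolism 13 of 24 were lower in KO FN and 1 higher, with a median of -1.65. Calls made up 58.3% of the list, against 38.6% of all genes tested. Nos2, the inducible nitric oxide synthase, had 13.1, 7.0 and 5.58 CPM in KO FN and 388, 234 and 684 CPM in WT FN, 0.145, 0.147 and 0.721 CPM in KO untreated and 0.468, 0.473 and 0.592 CPM in WT untreated cells. It rose in both genotypes but KO FN libraries stayed far below WT FN libraries (-5.67 ± 0.58, edgeR adjusted p = 4.24e-07). Ptgs2, the inducible cyclooxygenase, showed the same order, at 140.0, 70.8 and 95.7 CPM in KO FN and 2900, 2420 and 2340 CPM in WT FN (-4.65 ± 0.50). Hmox1, heme oxygenase, was the higher member, with 840.0, 1110 and 1360 CPM in KO FN and 501, 688 and 382 CPM in WT FN (1.07 ± 0.26, edgeR adjusted p = 0.00286). It rose with FN in KO cells (1.04 ± 0.26) while the change in WT cells was -0.01 ± 0.26, but the call of this difference of responses (edgeR adjusted p = 0.0451) was lost under RLE scaling, without a filter, in a fit of the compared groups alone, without the libraries numbered 1 and on leaving out any 1 of 8 libraries. Slc7a11, a cystine transporter, did not pass (-1.65 ± 0.91, edgeR adjusted p = 0.175, 0.0324 with the number block).

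A set of genes that WT cells lowered with FN was at higher levels in KO FN. Homeostatic microglial genes had 8 higher and 7 lower members of 28 (53.6% called, against 38.6% of all genes tested). Their median of -0.19 turned to 0.47 under library totals. With FN 8 of the 28 fell and 0 rose in KO cells, and 11 fell and 4 rose in WT cells. The median changes of the list were -0.29 in KO and -0.42 in WT cells. Cx3cr1, the fractalkine receptor that marks resting microglia, had 1100, 1080 and 981 CPM in KO FN and 170.0 to 208 CPM in WT FN, 1200, 973 and 968 CPM in KO untreated and 1450, 827 and 990.0 CPM in WT untreated cells. WT FN libraries stood apart below the other groups, among which values overlapped. With FN Cx3cr1 changed by 0.01 ± 0.21 in KO cells, fell by 2.50 in WT cells, and differed by 2.45 ± 0.22 between KO FN and WT FN (edgeR adjusted p = 7.98e-08). Cebpa, a transcription factor of the myeloid lineage, fell in both genotypes, by 1.94 in KO and 5.42 in WT cells, with a difference of responses of 3.48 ± 0.48 (edgeR adjusted p = 3.58e-05) and 3.77 ± 0.37 between KO FN and WT FN. Mertk, a receptor for the uptake of dying cells, went the other way, with 23.2, 26.2 and 27.9 CPM in KO FN and 188, 206 and 232 CPM in WT FN, and 112, 145 and 173 CPM in KO untreated and 118, 156 and 141 CPM in WT untreated cells. It fell by 2.48 with FN in KO cells and rose by 0.59 ± 0.24 in WT cells (genotype difference with FN -3.02 ± 0.26, edgeR adjusted p = 5.5e-08). C1qb, a complement subunit, differed by -0.80 ± 0.21 (edgeR adjusted p = 0.00444), a call that was lost under library totals (-0.13).

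The 10 largest rises between KO FN and WT FN were Bmf, Cd300lb, Osgin1, Cxcr4, Lyl1, Sesn1, Cebpa, Lhfpl2, Zfp395 and Plekhg3. All but Osgin1 were at a higher level in untreated cells of both genotypes than in KO FN. Bmf, a promoter of apoptosis, had 23.2, 39.8 and 20.2 CPM in KO FN and 0.418, 0.583 and 0.673 CPM in WT FN, 59.3, 71.4 and 44.7 CPM in KO untreated and 50.1, 38 and 67.6 CPM in WT untreated cells. With FN it changed by -1.07 ± 0.47 in KO cells (edgeR adjusted p = 0.144, 0.00341 with a block for each replicate of each genotype) and fell by 6.52 in WT cells, and the genotypes differed by 5.62 ± 0.61 (edgeR adjusted p = 8e-07). Cd300lb, an activating receptor of myeloid cells, had 117, 114 and 145 CPM in KO FN and 2.93, 4.08 and 3.23 CPM in WT FN, 228, 201 and 249 CPM in KO untreated and 226, 190.0 and 244 CPM in WT untreated cells. The WT FN libraries alone were under 5 CPM, and KO FN differed from them by 5.20 ± 0.37 (edgeR adjusted p = 1.09e-08). Cxcr4, the receptor of CXCL12, had 16.5, 23 and 57 CPM in KO FN and 1.60, 2.11 and 2.02 CPM in WT FN, and it fell in both genotypes, by 2.62 in KO and 6.10 in WT cells. Sesn1, a stress-induced sestrin, differed by 3.91 ± 0.31, and Lyl1, a transcription factor of blood cell precursors, by 4.04 ± 0.29. Of 20 receptors for chemotactic and small signals 5 were higher and 5 lower, and 8 and 4 under library totals. The share called with TMM was 50%, against 38.6% of all genes tested. Cnr2, a cannabinoid receptor, and S1pr1, a sphingosine phosphate receptor, were higher by 3.58 ± 0.52 and 3.17 ± 0.41, and Ccrl2, a non-signalling receptor of chemerin, and the adenosine receptor Adora2a differed by -4.66 ± 0.35 and -3.74 ± 0.58.

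FN moved 80 genes with at least 5 CPM in opposite directions in the 2 genotypes, 38 of them up in KO cells. The 10 with the largest differences of responses were Ppargc1b, Osgin1, Hk2, Trim25, Rgs1, Rab19, Irf8, Ptch1, Nfil3 and C130039O16Rik. Hk2, the inducible hexokinase, had 36.4, 31.2 and 43.9 CPM in KO FN and 711, 606 and 600.0 CPM in WT FN, 90.9, 74.9 and 65.6 CPM in KO untreated and 89.6, 82.4 and 67.7 CPM in WT untreated cells. Untreated cells of the genotypes overlapped, KO FN libraries lay below them and WT FN libraries above. Hk2 fell by 1.05 in KO cells and rose by 3.00 ± 0.26 in WT cells, with a difference of responses of -4.05 ± 0.35 (edgeR adjusted p = 5.89e-07). Trim25, a ubiquitin ligase of the RIG-I pathway, had 79.9, 74.9 and 58.8 CPM in KO FN and 1030, 818 and 868 CPM in WT FN, with a difference of responses of -3.91 ± 0.36 (edgeR adjusted p = 8.77e-07). Ppargc1b, a coactivator of mitochondrial genes, was lower in KO FN at 0.628, 0.570 and 0.240 CPM than in WT FN at 32, 22.2 and 20.1 CPM, with -5.37 ± 0.65. The opposite order was seen for Osgin1, a gene induced by oxidative stress, with 16, 23.5 and 20.2 CPM in KO FN and 1.25, 1.09 and 0.539 CPM in WT FN, 8.78, 9.17 and 7.04 CPM in KO untreated and 5.72, 7.57 and 7.65 CPM in WT untreated cells. It rose by 1.26 ± 0.31 in KO cells and fell by 2.85 in WT cells (difference of responses 4.11 ± 0.46, edgeR adjusted p = 4.84e-06).

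**Figure D4:**
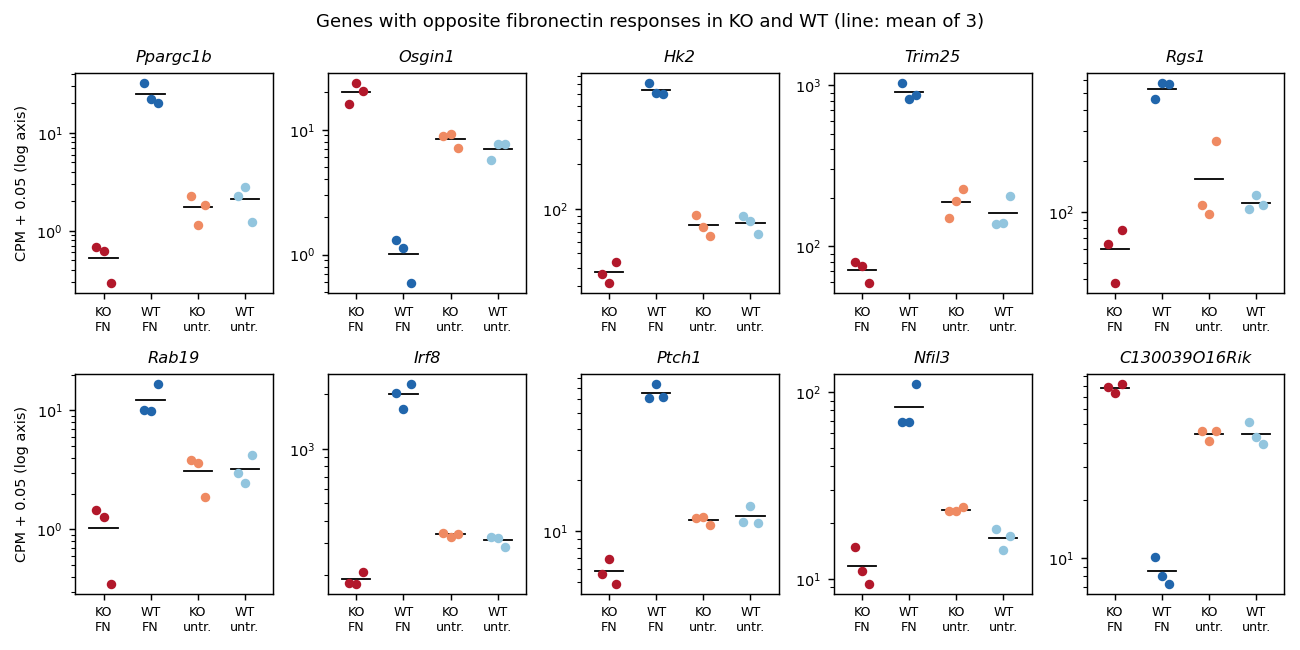
CPM (log axis, with 0.05 added) per library of the 10 genes with opposite FN responses, in the order KO FN, WT FN, KO untreated, WT untreated; lines are means of 3. For 8 genes the KO FN mean is lowest and the WT FN mean highest; for Osgin1 and C130039O16Rik the order is turned.

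A further 104 genes were called with FN in KO cells, not in WT cells, and in the difference of responses, 67 of them rising in KO cells. Pou2f2, the transcription factor OCT2, had 207, 218 and 226 CPM in KO FN and 35.4, 28.9 and 58.6 CPM in WT FN, 55.9, 50.8 and 48.3 CPM in KO untreated and 70.6, 55.1 and 48 CPM in WT untreated cells. KO FN libraries lay above the 3 other groups. It rose by 2.07 ± 0.25 in KO cells, changed by -0.50 ± 0.24 in WT cells (edgeR adjusted p = 0.102, 0.0342 with a block for each replicate of each genotype) and had a difference of responses of 2.57 ± 0.35 (edgeR adjusted p = 3.17e-05). Rrad, a small GTPase, showed the same order with 35.5, 45.5 and 35.1 CPM in KO FN and 5.02, 2.26 and 10.4 CPM in WT FN, and a difference of responses of 2.61 ± 0.64, which was lost without the libraries numbered 1 (edgeR adjusted p = 0.147). With the same block the WT changes of Rrad and Mtus1 were called as well (0.0128 and 0.0259). So were those of Adamts6, E130102H24Rik, Tmem140, Pik3ip1 and Sema4b of this class (edgeR adjusted p = 0.00848, 0.0229, 0.0246, 0.0419 and 0.0312). Those of Myb and 1700071M16Rik were not (0.479 and 0.862). The class thus depends on the test without a block, and a missing call in WT cells does not show that a gene stayed unchanged there. Mtus1, a microtubule-associated protein, fell by 2.05 in KO cells and had 41.5, 27.4 and 14.6 CPM in KO FN and 172, 162 and 180.0 CPM in WT FN.

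Of 20 tested cholesterol synthesis genes 9 were higher in KO FN and none lower, with a median of 0.73, and 17 were higher under library totals. The share called with TMM was 45%, against 38.6% of all genes tested, of which 21.0% were higher. Stard4, a sterol carrier, had 62.9, 59.8 and 57.7 CPM in KO FN and 20.9, 12.8 and 20.5 CPM in WT FN, and 35.3 to 57.2 CPM in untreated libraries of both genotypes. KO FN values were above all untreated ones and WT FN values below all of them (1.74 ± 0.22, edgeR adjusted p = 4.29e-06). The enzymes Sqle and Lss were higher by 1.43 ± 0.28 and 1.43 ± 0.23. Srebf2, the transcription factor of this pathway, was not called (-0.18 ± 0.18), and its sign turned under library totals. Of 16 regulators of cell death 3 were higher (Bmf, Pmaip1 and Bcl2) and 10 lower in KO FN, and 4 and 6 under library totals. Calls with TMM made up 81.2% of that list, against 38.6% of all genes tested. The call of Bcl2, an inhibitor of apoptosis (1.06 ± 0.36), was lost on leaving out any of 4 libraries or those numbered 1 (edgeR adjusted p of 0.068 to 0.229). Mlkl, the effector of necroptosis, differed by -4.99 ± 0.52, and Cflar, an inhibitor of caspase activation, by -2.38 ± 0.34. Fos and Myc, immediate early transcription factors, were the 2 higher members of that list of 21, at 2.04 ± 0.36 and 1.92 ± 0.37, while 8 were lower (4 and 5 under library totals), among them Nr4a3 at -3.90 ± 0.60 and Mafk at -3.68 ± 0.27. In the phagocytosis and lysosome list 8 of 23 were lower and 1, Cd300lb, higher (4 and 4 under library totals). Fcgr4, an Fc receptor, differed by -3.08 ± 0.56 and Axl, a receptor for apoptotic cells, by -1.91 ± 0.40. Calls made up 47.6% of the immediate early list and 39.1% of the phagocytosis and lysosome list, against 38.6% of all genes tested. Cell cycle genes had 1 call of 22 (4.55%, against 38.6% of all genes tested). It was Mcm6, a replication helicase subunit, at -0.54 ± 0.20 (edgeR adjusted p = 0.0401). That call was lost on leaving out any of 5 of the 6 libraries (0.0716 to 0.182), without a filter (0.062) and in a fit of the compared groups alone (0.0751), and its sign turned under library totals (0.12). Mki67, the proliferation marker, was not called and had a wider spread within KO FN than between the groups, at 574, 230.0 and 45.5 CPM in KO FN and 486, 381 and 324 CPM in WT FN.

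The genotype difference with FN was then set against that with LPS, which rests on other libraries. At 10 ng/ml LPS the difference with FN minus that with LPS was called at 784 genes (5.90%), 238 positive (1.79%) and 546 negative (4.11%). Without the libraries numbered 1 it was called at 31 genes, and leaving out WT LPS10 replicate 2, WT FN replicate 1, KO LPS10 replicate 1 or KO FN replicate 2 gave 414, 441, 454 and 490. A block on the replicate number gave 1582. Of the calls 30.4% were positive, and 67.2% under library totals. At 0.1 ng/ml it was called at 1322 genes (9.94%), 685 positive (5.15%) and 637 negative (4.79%), with 304 calls without the libraries numbered 1, 871 without WT LPS0.1 replicate 3 and 2308 with the block. Here 51.8% of calls were positive, and 91.0% under library totals. Of the 43 interferon-stimulated genes 35 were called negative against 10 ng/ml and 9 against 0.1 ng/ml, but 1 in each case without the libraries numbered 1, where the medians of the difference were -3.03 and -1.66 in place of -3.34 and -1.49. Median genotype differences of this list were -5.32 with FN, -3.60 with 0.1 ng/ml and -1.82 with 10 ng/ml LPS. Of the 22 cytokines 16 were negative against 10 ng/ml and 7 against 0.1 ng/ml, and 3 and 1 without those libraries. Their median genotype differences were -3.91 with FN, -2.87 with 0.1 ng/ml and -0.76 with 10 ng/ml LPS.

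Il6 showed how the stimuli differed in the 2 genotypes. With FN it had 2.98, 1.02 and 2.88 CPM in KO cells and 669, 485 and 694 CPM in WT cells, and with 10 ng/ml LPS 336, 151 and 109 CPM in KO cells and 583, 497 and 768 CPM in WT cells. The WT libraries of both stimuli covered one range, and the KO libraries did not. The genotype difference with FN minus that with 10 ng/ml LPS was -6.45 ± 0.81 (edgeR adjusted p = 0.000388). Rsad2 had 3510, 2110 and 762 CPM in KO and 17600, 18100 and 17600 CPM in WT cells with 10 ng/ml LPS, beside the FN values above, and a difference between stimuli of -5.18 ± 0.67 (edgeR adjusted p = 0.000388). Tnf had 6930, 5040 and 6860 CPM in KO and 7400, 6160 and 6380 CPM in WT cells with 10 ng/ml LPS, groups that overlapped, and a genotype difference there of -0.08 ± 0.42 (edgeR adjusted p = 0.965). With 0.1 ng/ml LPS its genotype difference was -2.83 ± 0.45, near the -2.54 ± 0.45 with FN. Bmf and Cd300lb had the largest positive values against 0.1 ng/ml LPS, 4.03 ± 0.74 and 3.91 ± 0.46, and were among the 5 largest against 10 ng/ml. Irf8 differed by -3.84 ± 0.16 between genotypes with 10 ng/ml LPS, by 0.08 ± 0.14 with 0.1 ng/ml and by -3.41 ± 0.16 with FN.

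**Figure D5:**
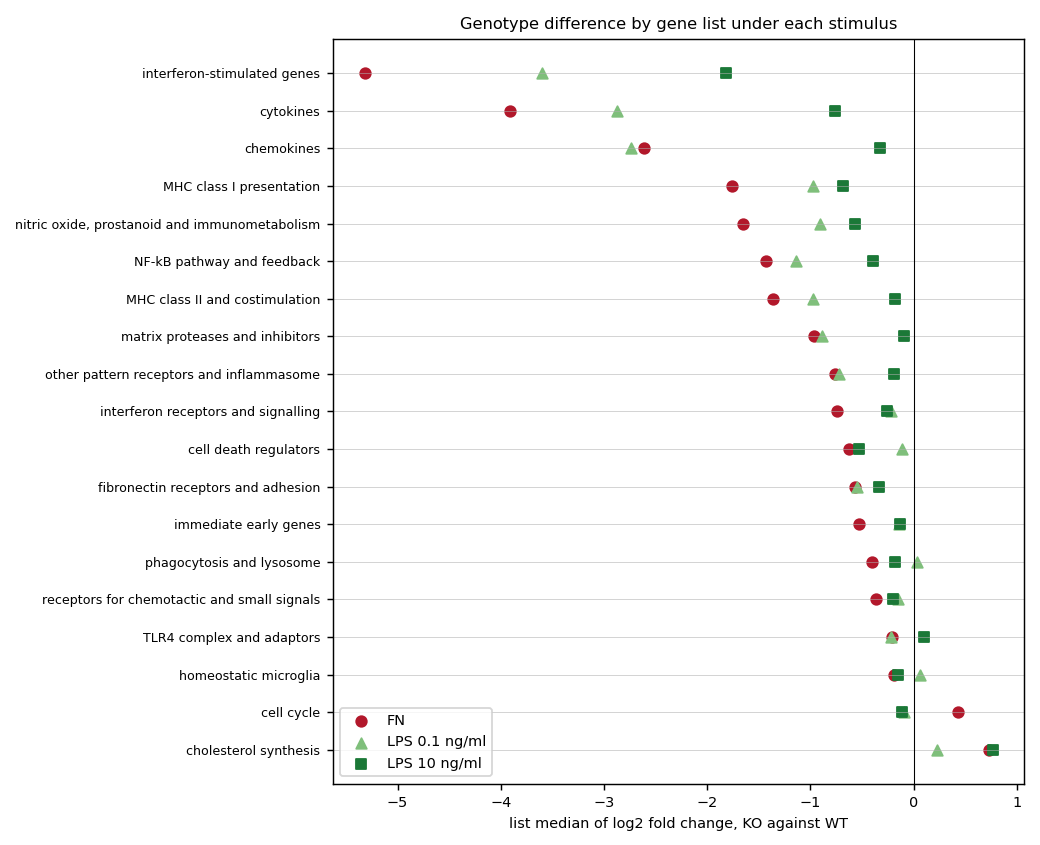
List medians of the log2 fold change of KO against WT with FN, LPS 0.1 ng/ml and LPS 10 ng/ml, TMM scaling. For interferon-stimulated genes and cytokines the FN median is lowest (-5.32 and -3.91) and that of LPS 10 ng/ml nearest to 0 (-1.82 and -0.76).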

How the data were processed

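Read counts per gene were deposited by the authors for 24 RNA-seq libraries (8 groups of 3). Per the submitters' processing notes the tools were Bowtie2 2.1.0, HTSeq 0.5.4, DESeq, SAMtools 0.1.19, CASAVA 1.8.2 and FastQC 0.10.0, with the build mm10. The gene annotation and the strand setting of the counting are not given in the sources used here, so reads of overlapping or antisense genes cannot be told apart. A second deposited table holds a signal of 12889 genes, the counts divided by 1 factor per library. It served for 1 alternative, limma on log2 values with a pseudocount of 1.

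Groups were taken from the labels. Tests used edgeR's quasi-likelihood method (version 4.0.16, R 4.3.3, TMM scaling, edgeR's filter with a minimum count of 10 in the smallest group and 15 in total, 8 group means, 16 residual degrees of freedom, prior count 0.125), with Benjamini-Hochberg adjustment over the 13294 genes of each comparison and a threshold of 0.05. Standard errors were taken as the log2 fold change over the root of F. Depth was 14939019 to 22143774 counts per library. Intervals given for ratios of few counts cover counting error only. Gene positions are those of GENCODE M21 on GRCm38 (mm10), and promoter sequences are from RefSeq on GRCm38.p6.

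Genes named are 9 fixed ones (among them Cd14, Tnf and Il6), the 10 largest rises and falls between KO FN and WT FN with at least 5 CPM and no overlap of libraries, for each of 19 lists up to 4 called genes in each direction and the 2 uncalled genes of highest level, and the genes of the response classes described. Marker genes are named where their level was checked. Some genes that the rule picks are not reported here. The members and lists were chosen with earlier results of these data known.

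Replicate numbers come from the labels, which do not say that equal numbers share a preparation. Same-numbered KO FN and WT FN libraries correlated in their deviations from the group means at 0.822, 0.419 and 0.253 over 9582 genes, but KO FN 2 correlated more with WT FN 3 (0.732) and KO FN 3 more with WT FN 2 (0.4) than with their own numbers, and untreated libraries did likewise. Between FN and untreated libraries of 1 genotype same-numbered pairs correlated at 0.908 to 0.952 in KO and 0.777 to 0.925 in WT. The number was therefore fitted as a block over all libraries and as a block nested in genotype. Blocked values stand beside some of the gene calls and list counts that they changed. Further changed gene calls are given at the end, and list counts are those without a block unless a block is named. Alternatives were RLE scaling and library totals, other filters, DESeq2 1.42.0, limma 3.58.1, fits of the compared groups alone, both blocks and leaving out each library. Leaving out all libraries numbered 1 was added after seeing the data.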

Additional observations from a re-analysis of the deposited data

Results flagged for a closer look

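The responses of the genotypes to FN differed at 3069 genes by the test of the difference itself, the log2 change of KO cells minus that of WT cells. The genotype difference with FN differed from that with 10 ng/ml LPS at 784 genes and from that with 0.1 ng/ml LPS at 1322 genes, by the same kind of test.

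Among the 9 genes followed throughout, the difference of responses was called at 7. It was -10.41 for Ifnb1, -8.83 for Il6, -6.64 for Cxcl10, -6.33 for Il12b, -4.76 for Ccl5, -2.36 for Tnf and -2.26 for Cd14. Of these genes Tnf, Cxcl10, Il12b and Ccl5 also rose in KO cells, and Ifnb1, Il6 and Cd14 did not pass the test there.

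The 10 genes with opposite responses were picked by their difference of responses. Those with a lower KO response were Ppargc1b at -5.37, the hexokinase Hk2 at -4.05, the ubiquitin ligase Trim25 at -3.91, Rgs1, a brake on G protein signalling, at -3.61, the small GTPase Rab19 at -3.57, Irf8 at -3.52, the Hedgehog receptor Ptch1 at -3.44 and the transcription factor Nfil3 at -3.33. Osgin1 at 4.11 and C130039O16Rik at 3.21 had the higher KO response.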

How the results depend on the processing

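Of 178 named genes, 136 kept their call between KO FN and WT FN under each alternative run, and 112 did so in the difference of responses. A turned sign was counted as a change only where the main or the alternative fit called the gene. Under library totals KO FN against WT FN gave 7955 calls (6838 higher, 1117 lower), the difference of responses 5807 (4999 and 808), the comparison with 0.1 ng/ml LPS 3423, and the median share kept was 39.3%. Among genes called in either fit, the signs of Tgfb1 (0.49), Irak3 (0.578), Adam8 (0.547), Tyrobp (0.479), Ctsb (0.486), Srebf2 (0.501), Mcm6 (0.116) and Vasp (0.426) turned between KO FN and WT FN, and that of Vasp (0.633) in the difference of responses. Signs of genes called in neither fit turned too, among them Tln1 (0.258) and Gpr84 (0.652) between KO FN and WT FN. In the difference of responses the signs of Tlr2 (0.541), Syk (0.545) and Cebpb (0.479) were among these. With the replicate number as a block, calls numbered 3431 for the FN response of KO cells, 19 between untreated genotypes, and 1582 and 2308 for FN against 10 and 0.1 ng/ml LPS. A block for each replicate of each genotype gave 6553 calls for the difference of responses (3468 higher, 3085 lower), 5851 for KO cells, and 3688 and 4588 for the LPS comparisons. Blocked calls of single genes stand in the text where KO FN against WT FN changed. Others gained under the number block there were Ifngr2 (0.0206), Irak2 (0.0403), Mmp12 (0.012), Ldha (0.000785), Pcna (2.84e-07), Rbpms (0.0261), Lcn2 (0.0312) and Siglece (2.63e-05). The printed list counts do not include genes gained under this block. In the difference of responses Lipg (0.0805), Serping1 (0.054) and Lif (0.0951) were lost and Jun, P2ry13, C1qb, Axl, Msr1, Lpar6, C5ar1, Psme2, Pcna, Angptl4 and Siglece gained, and the number block changed no other call of a named gene. The block nested in genotype lost the difference of responses of Lipg (0.0884) and, among genes described in the text, gained those of Fn1 (0.00429), Irak1 (0.0137), Tlr5 (0.0494), Tlr13 (0.00294), Tln1 (0.0346), C1qb (0.000194), Axl (1.24e-05), Psme2 (4.68e-05), Bcl2 (0.00342), Srebf2 (0.0046) and Mcm6 (0.00829). Fits of the compared groups alone gave 1246 calls for KO cells, 0 for untreated cells, and 492 and 834 for the LPS comparisons, from fewer samples. DESeq2 gave 2 calls for untreated cells and 1178 for FN against 10 ng/ml LPS. Without the libraries numbered 1, calls fell to 1580 for the difference of responses (679 and 901), 1004 for KO cells, and 31 and 304 for the LPS comparisons, with fewer samples. Leaving out 1 library gave 414 to 816 calls against 10 ng/ml LPS, 871 to 1349 against 0.1 ng/ml, 4377 to 4716 for KO FN against WT FN and 2623 to 2901 for the difference of responses. The cause of these moves was not tested. Genes with few counts, such as Lipg and Serping1 in KO FN, are limited by depth.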
